A study of Homo sapiens with 12 samples.

Results

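The 10 genes of glucose uptake and glycolysis, SLC2A1, HK2, GPI, PFKFB3, PFKFB4, ALDOA, PGK1, ENO1, LDHA and PDK1, were followed across the 4 treatment groups of an RNA-seq experiment in T47D cells, an established estrogen receptor-positive line of luminal breast cancer. The 10 members were chosen by name for their place in the pathway, with earlier results of these data known. All 10 were found among the 25370 genes of the count table. The groups were vehicle, anastrozole at 10 nM, estradiol (E2) at 0.1 nM, and anastrozole at 10 nM with E2 at 0.1 nM (called the combination here), with 3 libraries each, lettered a, b and c, so that 12 libraries were compared. All groups, vehicle included, had been kept for 48 h in 5% stripped serum and for 24 h without serum before treatment, which the sample labels put at 12 h and the methods of the study at 24 h. Anastrozole is an aromatase inhibitor, and the design asks how its effect on transcription compares with that of E2 and how the pair act when given together. Nothing in the labels says that the 3 libraries of a group came from separate cultures, so p-values measure the spread between these libraries, which may be technical, and a single line stands for each group.

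Glycolysis splits glucose into pyruvate in the cytosol. Glucose enters through carriers such as SLC2A1 (GLUT1), is trapped by hexokinase and is committed to the pathway at phosphofructokinase, which fructose 2,6-bisphosphate activates; the PFKFB enzymes make and remove that activator. Pyruvate is then either reduced to lactate by lactate dehydrogenase or passed to the mitochondrion, where pyruvate dehydrogenase kinases such as PDK1 restrain its oxidation. Tumour cells are known for high glucose use and lactate output in the presence of oxygen, and many genes of the pathway are textbook targets of hypoxia-inducible factors (HIF), which bind a short core sequence, and of MYC, which binds the E-box.

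The gene counts of a library summed to between 9914253 and 17009776, 3 counts in a library were worth 0.177 to 0.303 CPM (the count relative to library size), and the members had between 763 and 39995 counts in any library. The replicates least alike were anastrozole a and c (chi-square over degrees of freedom, 4.83), and those most alike were combination b and c (1.28). All 8 luminal markers were present at 1 CPM or more and summed to between 9224 and 10270 CPM per library, whereas basal markers summed to at most 2.88 CPM and endothelial markers to at most 0.622 CPM. Of 5 fibroblast markers only COL1A1 exceeded 1 CPM (mean of 91.9 CPM), and the immune markers PTPRC and CD3E stood at 0.019 and 0.044 CPM.

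The start sites of the members were read from RefSeq promoter windows (GRCh38.p14, 250 bases before to 50 bases after a start site, written 5′ to 3′ on the strand of the gene), of which 16 belonged to the 10 members. Each window was searched on both strands for the HIF core, ACGTG or GCGTG, for the E-box CACGTG, which holds ACGTG on either strand, for the estrogen response element GGTCANNNTGACC and for one arm of it, GGTCA. The 6 windows below are those of the 4 members with the largest changes under the combination (for HK2 and PDK1 the window with the E-box or the core) and, for contrast, of LDHA, which did not pass the test under the combination. Capitals mark every match to ACGTG or GCGTG on either strand.

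PFKFB3, first start site, chr10:6144671-6144970, plus strand: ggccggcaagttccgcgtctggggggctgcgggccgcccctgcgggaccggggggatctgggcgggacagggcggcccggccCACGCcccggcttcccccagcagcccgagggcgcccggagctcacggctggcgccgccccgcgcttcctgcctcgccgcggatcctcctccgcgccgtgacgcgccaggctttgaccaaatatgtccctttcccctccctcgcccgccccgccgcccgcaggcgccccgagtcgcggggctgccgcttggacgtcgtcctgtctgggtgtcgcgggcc

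PFKFB3, second start site, chr10:6202682-6202981, plus strand: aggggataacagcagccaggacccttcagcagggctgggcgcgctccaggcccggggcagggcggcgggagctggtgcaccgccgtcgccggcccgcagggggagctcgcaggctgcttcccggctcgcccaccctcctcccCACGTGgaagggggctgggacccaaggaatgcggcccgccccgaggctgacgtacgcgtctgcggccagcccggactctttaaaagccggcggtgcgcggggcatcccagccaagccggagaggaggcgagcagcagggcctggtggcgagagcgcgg

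PDK1, second start site, chr2:172555840-172556139, plus strand: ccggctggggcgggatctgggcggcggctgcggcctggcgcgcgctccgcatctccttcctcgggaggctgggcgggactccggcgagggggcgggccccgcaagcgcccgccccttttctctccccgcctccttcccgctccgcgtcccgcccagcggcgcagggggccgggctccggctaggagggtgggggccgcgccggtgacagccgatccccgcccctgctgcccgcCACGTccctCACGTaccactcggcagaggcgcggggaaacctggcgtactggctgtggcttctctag

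PFKFB4, chr3:48556754-48557053, minus strand: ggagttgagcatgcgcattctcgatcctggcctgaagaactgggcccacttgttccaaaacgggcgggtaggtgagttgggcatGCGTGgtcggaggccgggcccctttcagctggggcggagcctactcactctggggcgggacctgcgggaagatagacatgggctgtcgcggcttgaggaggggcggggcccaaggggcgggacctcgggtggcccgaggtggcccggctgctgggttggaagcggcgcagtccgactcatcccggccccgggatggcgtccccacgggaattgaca

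HK2, second start site, chr2:74834920-74835219, plus strand: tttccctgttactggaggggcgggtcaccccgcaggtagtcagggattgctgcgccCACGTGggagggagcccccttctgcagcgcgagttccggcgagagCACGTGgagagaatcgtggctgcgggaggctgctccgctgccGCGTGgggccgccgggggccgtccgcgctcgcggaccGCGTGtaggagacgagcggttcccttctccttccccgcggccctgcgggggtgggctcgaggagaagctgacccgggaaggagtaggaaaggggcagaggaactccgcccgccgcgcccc

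LDHA, first start site, chr11:18394313-18394612, plus strand: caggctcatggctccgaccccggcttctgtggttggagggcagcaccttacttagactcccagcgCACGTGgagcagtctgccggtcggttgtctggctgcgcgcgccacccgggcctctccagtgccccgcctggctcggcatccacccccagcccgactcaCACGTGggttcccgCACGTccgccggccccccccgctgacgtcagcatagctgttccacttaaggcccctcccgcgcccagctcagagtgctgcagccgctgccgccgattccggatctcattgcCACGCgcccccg

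The HIF core was present in 15 of the 16 member windows and in at least 1 window of all 10 members, against 48.4% of all 35116 windows in the table. ACGTG alone was found in 21.4% of all windows and GCGTG in 36.5%. The E-box, present in 7.26% of all windows, lay in 4 member windows, 1 each of HK2, PFKFB3, ALDOA and LDHA. In the second window of PFKFB3 it began 108 bases before the start site, in that of HK2 it occurred at 194 and 149 bases before, and in that of LDHA at 185 and 87 bases before. The full estrogen response element was found in 0 member windows and in 0.057% of all windows, and the single arm GGTCA in 2 member windows (PFKFB3 and HK2) against 37.4% of all. These matches describe letters in 300 bases around the start site and nothing further away.

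To see how each treatment moved the pathway, each treated group was compared with vehicle by the quasi-likelihood test of edgeR, p-values being adjusted by Benjamini-Hochberg over the 21132 genes that had any count and called under 0.05; the 3 comparisons share the vehicle libraries. E2 raised 9 of the 10 members, all but SLC2A1, by between 0.08 and 0.41 on the log2 scale, and the combination raised 8, all but SLC2A1 and LDHA, by between 0.14 and 0.57. Anastrozole alone raised HK2 and PDK1, both by 0.17. Over all genes tested, 6.06% rose with E2 (12% were called in either direction), 2.71% rose with the combination (5.04% in either direction) and 1.4% rose with anastrozole (3.67% in either direction). Because the members are abundant, and abundant genes pass a test more easily, the 2984 genes at least as abundant as the lowest member (6.36 log2 CPM) give a closer comparison: 19.0% of them rose with E2, 5.80% with the combination and 4.73% with anastrozole.

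**Figure D1:**
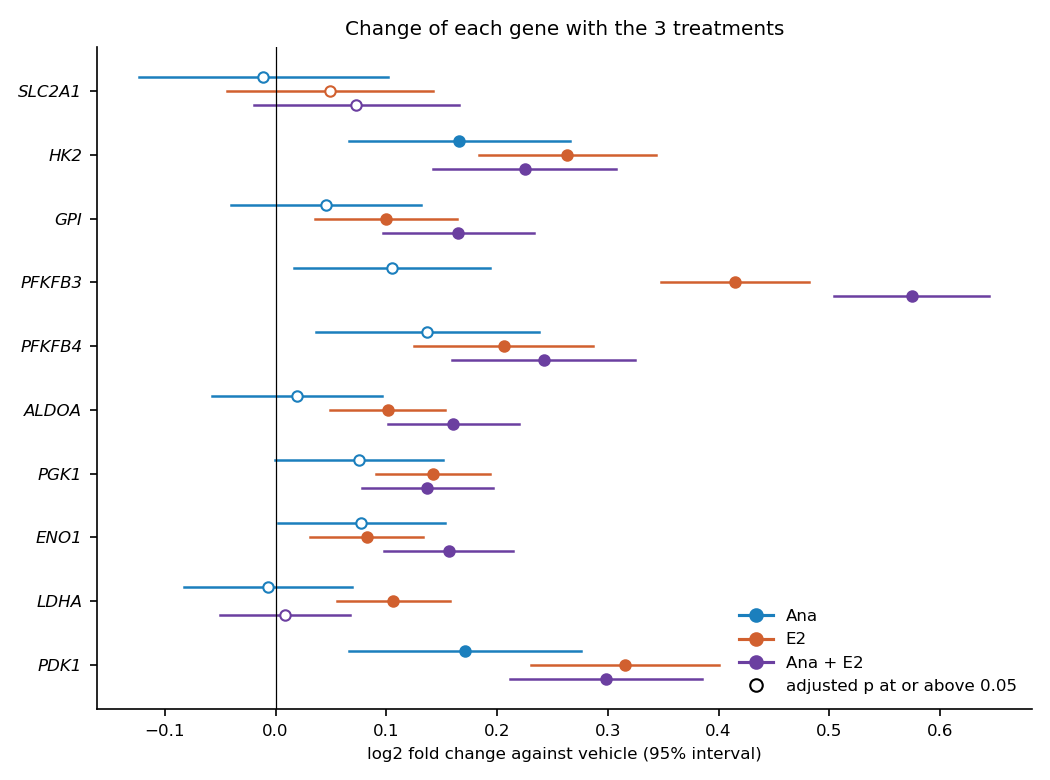
Log2 fold change of each of the 10 members against vehicle (x axis) with its 95% interval, for anastrozole (blue), E2 (orange) and the combination (purple); open circles did not pass the adjusted threshold of 0.05. PFKFB3 lies farthest to the right with E2 (0.41) and with the combination (0.57), and LDHA passes with E2 (0.11) but not with the combination (0.0082).

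The median log2 fold change of the members was 0.076 with anastrozole, 0.12 with E2 and 0.16 with the combination, beside medians of 0.0027, 0.014 and -0.014 over the 2984 abundant genes and of 0 over all genes tested. The members together took between 0.856% and 0.884% of the gene counts in the vehicle libraries, between 0.896% and 0.910% with anastrozole, between 0.940% and 0.946% with E2 and between 0.947% and 0.977% with the combination. The 4 groups thus did not overlap in the summed share, though E2 b (0.9459%) lay just below combination c (0.9469%). ALDOA, PGK1, ENO1 and LDHA made up most of this sum, with vehicle means of 1701, 1786, 2137 and 2093 CPM. The next highest member was GPI at 332.5 CPM. The changes were small for single genes, since apart from PFKFB3 no member moved against vehicle by more than 0.32 on the log2 scale (PDK1 with E2, 1.25-fold).

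**Figure D2:**
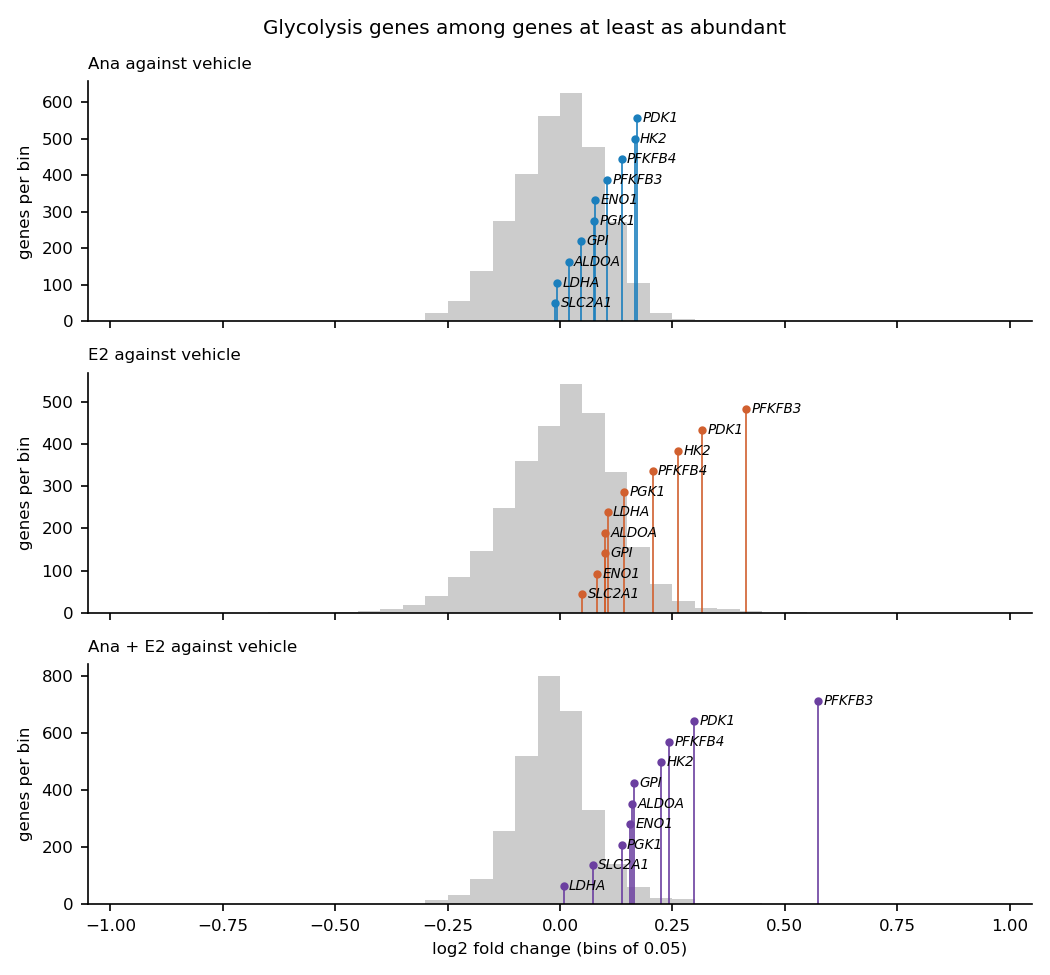
Number of genes per bin of log2 fold change against vehicle (grey; the 2984 genes at least as abundant as the lowest member, those beyond the axis in either direction placed in the outermost bins), with the 10 members drawn as labelled pins whose height only separates the names. With E2 and the combination all 10 pins stand to the right of 0, and with anastrozole 8 of 10 do.

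SLC2A1, the ubiquitous glucose carrier of the plasma membrane (chromosome 1, 43391024 to 43424564 on GRCh37, minus strand), was the only member that passed no test against vehicle. It was measured at 80.1, 78.1 and 83.2 CPM in vehicle a, b and c, at 76.0, 77.1 and 86.6 with anastrozole, at 85.4, 84.5 and 79.8 with E2, and at 84.2, 83.4 and 86.4 with the combination. The vehicle libraries overlapped with those of anastrozole and of E2 and lay just below those of the combination. Its log2 fold changes were -0.011 (95% interval -0.12 to 0.10) with anastrozole, 0.049 (-0.044 to 0.14) with E2 and 0.073 (-0.020 to 0.17) with the combination.

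HK2, the inducible hexokinase that phosphorylates glucose (chromosome 2, 75061254 to 75120486 on GRCh37, plus strand), stood at 120, 115 and 115 CPM in vehicle a, b and c and at 129, 134 and 131 CPM with anastrozole. It reached 146, 136 and 140 CPM with E2 and 139, 131 and 140 CPM with the combination. All 9 treated libraries lay above all vehicle libraries, and the combination overlapped with both single treatments. By edgeR its log2 fold change was 0.26 with E2 (SE 0.041, adjusted p = 1.3e-08), 0.23 with the combination (SE 0.042, adjusted p = 1.1e-05) and 0.17 with anastrozole (SE 0.051, adjusted p = 0.0378). The anastrozole call was held in only 1 of 6 fits that left out a library (without anastrozole c), was lost without vehicle a, b or c or anastrozole a or b, and was not made by DESeq2, edgeR's exact test or limma-voom. By edgeR it was also lost with filterByExpr (adjusted p = 0.051).

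GPI, which turns glucose 6-phosphate into fructose 6-phosphate (chromosome 19, 34850385 to 34893318 on GRCh37, plus strand), ranged from 329 to 335 CPM in vehicle, from 334 to 347 with anastrozole, from 347 to 364 with E2 and from 364 to 381 with the combination. It rose by 0.10 on the log2 scale with E2 (SE 0.033, adjusted p = 0.0239) and by 0.17 with the combination (SE 0.035, adjusted p = 0.00017), whereas the change of 0.046 with anastrozole did not pass. The anastrozole libraries overlapped with vehicle at the edge, and the E2 and combination libraries stood above it. The E2 call was lost without vehicle c, E2 b or E2 c, and was not made by DESeq2, edgeR's exact test, the fit on 12 libraries or the fit with replicate letter as a block (adjusted p = 0.051 to 0.069).

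PFKFB3, the isoform with high kinase activity that makes fructose 2,6-bisphosphate (chromosome 10, 6186897 to 6296607 on GRCh37, plus strand), changed more than any other member with E2 and with the combination, though not with anastrozole, where PDK1, HK2 and PFKFB4 had larger values. It was measured at 244, 234 and 239 CPM in vehicle a, b and c, at 253, 252 and 265 with anastrozole, at 318, 325 and 312 with E2, and at 358, 354 and 354 with the combination. The 4 groups formed 4 separate levels in that order, and the combination libraries were the tightest, with an SD of 2.14 CPM around 355.5 (n = 3). The log2 fold change was 0.41 with E2 (SE 0.034, adjusted p = 6.2e-31), or 1.33-fold, and 0.57 with the combination (SE 0.036, adjusted p = 1.1e-53), or 1.49-fold, by edgeR. With anastrozole alone it was 0.11 (95% interval 0.017 to 0.19, adjusted p = 0.20), which did not pass although all 3 libraries stood above vehicle.

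PFKFB4, the paralog with the same paired activities (chromosome 3, 48555117 to 48599448 on GRCh37, minus strand), was measured at 115, 113 and 116 CPM in vehicle a, b and c, at 124, 121 and 134 with anastrozole, at 133, 134 and 130 with E2, and at 139, 134 and 134 with the combination. Every treated library was above vehicle, and the treated groups overlapped with each other. It rose by 0.21 on the log2 scale with E2 (SE 0.041, adjusted p = 2.7e-05) and by 0.24 with the combination (SE 0.042, adjusted p = 1.6e-06), and the 0.14 with anastrozole had an adjusted p of 0.12. UCN2 lies on the same strand and covers 4.88% of its exon bases.

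**Figure D3:**
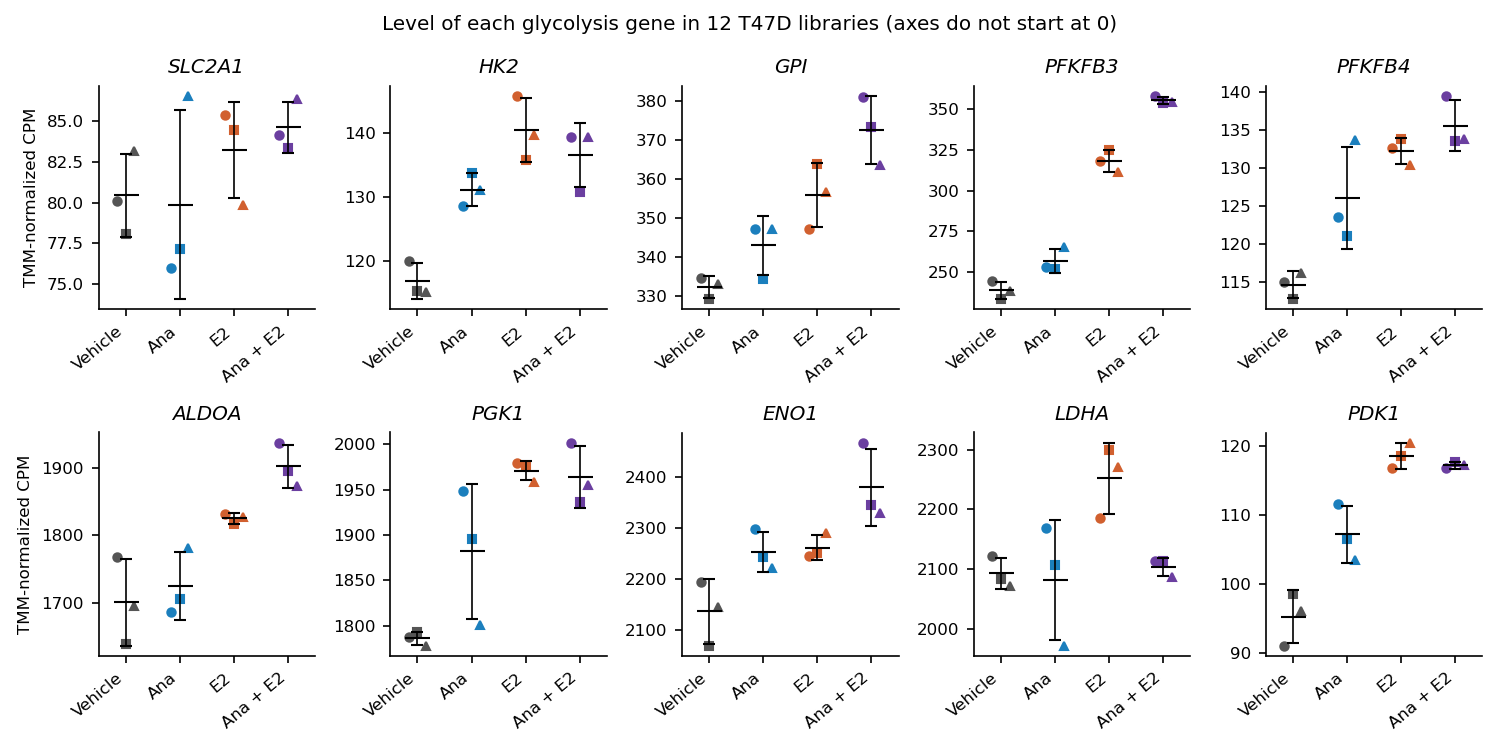
TMM-normalized CPM (y axis, starting above 0 and differing between panels) of each member in the 12 libraries by treatment group (circle, replicate a; square, b; triangle, c), with the mean and SD of 3 in black. PFKFB3 stands at 4 separate levels between a mean of 238.8 CPM in vehicle and 355.5 CPM with the combination, whereas LDHA is high with E2 (2252 CPM) and back near vehicle (2093 CPM) with the combination (2104 CPM).

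The enzymes of the lower pathway were far more abundant. ALDOA, the aldolase that splits fructose 1,6-bisphosphate (chromosome 16, 30075485 to 30081778 on GRCh37, plus strand), ranged from 1640 to 1768 CPM in vehicle, from 1686 to 1782 with anastrozole, from 1817 to 1831 with E2 and from 1873 to 1937 with the combination. It rose by 0.10 on the log2 scale with E2 (SE 0.027, adjusted p = 0.0027) and by 0.16 with the combination (SE 0.030, adjusted p = 1.3e-05). Other annotated genes cover 54.2% of its exon bases, 42.8% by a gene on the same strand, and neither of the 2 genes is listed in the count table.

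PGK1, which makes ATP from 1,3-bisphosphoglycerate (chromosome X, 77166236 to 77384792 on GRCh37, plus strand), ranged from 1778 to 1793 CPM in vehicle and from 1801 to 1949 with anastrozole. With E2 it ranged from 1959 to 1979 and with the combination from 1936 to 2002 CPM. It rose by 0.14 on the log2 scale with both (adjusted p = 4.4e-06 with E2 and 0.00037 with the combination), while the anastrozole libraries were widely spread and their 0.075 did not pass (adjusted p = 0.34).

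ENO1, the enolase that makes phosphoenolpyruvate (chromosome 1, 8921059 to 8939249 on GRCh37, minus strand), ranged from 2070 to 2194 CPM in vehicle, from 2222 to 2298 with anastrozole, from 2246 to 2290 with E2 and from 2330 to 2468 with the combination. It rose by 0.08 on the log2 scale with E2 (SE 0.026, adjusted p = 0.018) and by 0.16 with the combination (SE 0.030, adjusted p = 1.9e-05), and its 0.077 with anastrozole had an adjusted p of 0.31. The E2 call was lost without vehicle b or c or without any 1 of the 3 E2 libraries, and was not made by edgeR's exact test, the fit on 12 libraries or the fit with replicate letter as a block (adjusted p = 0.071 to 0.12).

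LDHA, the lactate dehydrogenase subunit that favours lactate (chromosome 11, 18416107 to 18429972 on GRCh37, plus strand), had a different order of groups. It was measured at 2122, 2084 and 2072 CPM in vehicle a, b and c, at 2168, 2107 and 1972 with anastrozole, at 2186, 2300 and 2271 with E2, and at 2113, 2113 and 2087 with the combination. The E2 libraries were above all the others, while the remaining 3 groups overlapped. It rose by 0.11 on the log2 scale with E2 (SE 0.026, adjusted p = 0.0011), and its change was 0.0082 with the combination (95% interval -0.050 to 0.067) and -0.0071 with anastrozole (-0.083 to 0.069). The E2 call was lost without E2 b, at an adjusted p of 0.052. It was also lost in edgeR with the trend in GC content removed, as described below (0.054, adjusted p = 0.13). The annotation holds 6 pseudogene copies of LDHA and 4 of ENO1, and reads that match a copy as well as the gene may be missing from the counts.

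PDK1, the kinase that inactivates pyruvate dehydrogenase (chromosome 2, 173420101 to 173473397 on GRCh37, plus strand), was measured at 91.1, 98.6 and 96.2 CPM in vehicle a, b and c, at 112, 107 and 104 with anastrozole, at 117, 119 and 121 with E2, and at 117, 118 and 117 with the combination. Vehicle was lowest and anastrozole intermediate, and E2 and the combination overlapped above them. By edgeR it rose by 0.32 on the log2 scale with E2 (SE 0.043, adjusted p = 5.7e-11), by 0.30 with the combination (SE 0.044, adjusted p = 4.2e-09) and by 0.17 with anastrozole (SE 0.053, adjusted p = 0.0421). The anastrozole call was held without vehicle b or anastrozole c and lost without vehicle a, vehicle c, anastrozole a or anastrozole b, and it was not made by DESeq2, edgeR's exact test or limma-voom. By edgeR it was also lost with filterByExpr (adjusted p = 0.067) and with the trend in GC content removed, as described below (0.10, adjusted p = 0.23).

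The treated groups were then compared with each other. Between anastrozole and E2, 1 member passed, PFKFB3, which was 0.30 lower on the log2 scale with anastrozole (SE 0.039, adjusted p = 3.6e-11), and 1.33% of all genes and 5.53% of the 2984 abundant genes were called. The other 9 differed by between -0.14 (PDK1, adjusted p = 0.13) and 0.0013 (ENO1), and LDHA at -0.11 had an adjusted p of 0.080. Between the combination and E2, PFKFB3 was 0.16 higher (SE 0.031, adjusted p = 5.6e-05) and LDHA 0.10 lower (SE 0.027, adjusted p = 0.0096), with 6.74% of all genes and 26.1% of the abundant genes called, so that 2 of 10 members was not above the share of abundant genes. Between the combination and anastrozole, PFKFB3 was 0.47 higher (SE 0.043, adjusted p = 1.7e-23) and ALDOA 0.14 higher (SE 0.041, adjusted p = 0.033), with 2.9% of all genes and 9.82% of the abundant genes called. The LDHA difference was lost without E2 b, E2 c, combination b or combination c and by the exact test and the fit on 12 libraries, and that of ALDOA in 5 of 6 fits that left out a library (called without anastrozole c), with filterByExpr and by the exact test and limma-voom, whereas the PFKFB3 differences were called in all 6 leave-one-out fits of each comparison. With the trend in GC content removed, as described below, PFKFB3 (0.097) and LDHA (-0.050) did not pass between the combination and E2. ALDOA (0.078) then did not pass between the combination and anastrozole.

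Whether the pair of agents together moved a gene by the sum of their single effects was tested with an interaction term over all 12 libraries, which is the log2 change with the combination minus the sum of the changes with anastrozole and with E2. HK2 fell short of the sum by 0.20 (interaction -0.20, SE 0.062, adjusted p = 0.0135) and PDK1 by 0.19 (interaction -0.19, SE 0.064, adjusted p = 0.0363), with 10.9% of all genes and 33.0% of the abundant genes called, so that 2 of 10 members was below the share of abundant genes. For PFKFB3, which was highest with the combination, the interaction was 0.054 (95% interval -0.052 to 0.16, adjusted p = 0.64), and the step from E2 to the combination was 0.16 beside 0.11 from vehicle to anastrozole. The HK2 interaction was lost without E2 a or combination b, at adjusted p of 0.072 and 0.077, and that of PDK1 in 9 of 12 fits that left out a library, with the replicate letter as a block (adjusted p = 0.052) and by DESeq2, the likelihood ratio test and limma-voom (adjusted p = 0.051 to 0.061).

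Fold changes in these libraries went with the GC content of the transcripts, and the values of the members stand beside that trend. Over 10845 genes with a mean of at least 3 log2 CPM, Spearman's rho between exon GC content and log2 fold change was -0.53 for anastrozole and -0.55 for E2 against vehicle, -0.026 for the combination against vehicle, 0.11 for anastrozole against E2, 0.68 for the combination against E2, 0.57 for the combination against anastrozole and 0.71 for the interaction. It is a correlation across genes, which are not independent replicates. PDK1, PGK1 and LDHA have exons of 40.1%, 43% and 43.6% GC, the other 7 members of between 51.1% and 57.3%, and the median gene of that abundance has 47.6%. The bin centred on 56% GC had a median log2 fold change of -0.079 with E2, and PFKFB3, at 55.9% GC, had 0.41.

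**Figure D4:**
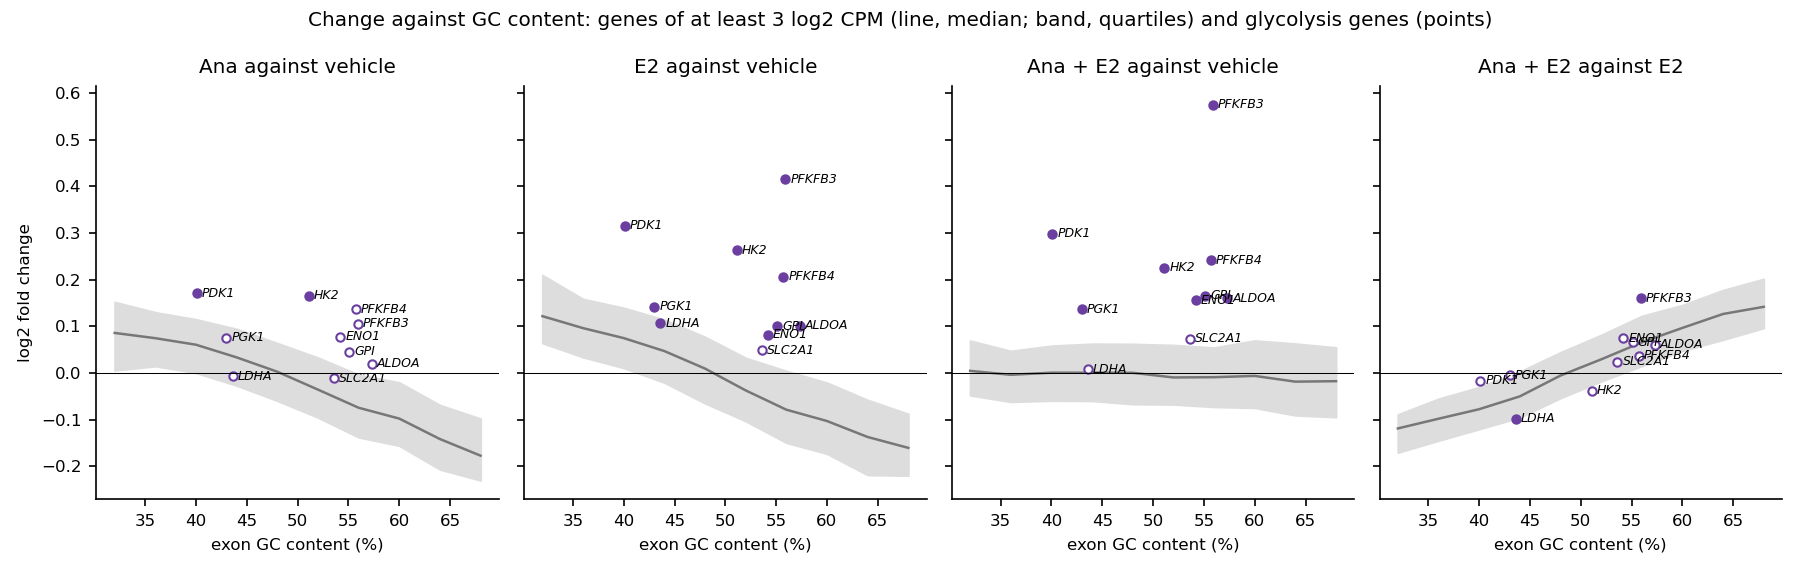
Log2 fold change (y axis) against exon GC content in percent (x axis) in 4 comparisons; the grey line is the median and the band the quartiles of genes with a mean of at least 3 log2 CPM in bins of 4% GC, and points are members (filled where the adjusted p was under 0.05). In the combination against vehicle the line is flat and most members stand above the band, whereas in the combination against E2 the members largely follow the rising line, with LDHA low (-0.10) and PFKFB3 highest (0.16).

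With the GC trend subtracted from each library before the test, E2 raised 8 members, all of the former 9 but LDHA (0.054, adjusted p = 0.13), and the combination raised the same 8, while 3.8% and 3.2% of all genes rose. The medians of the members were then 0.17 with E2 and 0.17 with the combination, so the step between these medians was no longer seen, and 0.099 with anastrozole. The E2 values of GPI (0.16), ALDOA (0.18) and ENO1 (0.13) became larger and that of PGK1 (0.085) smaller. Anastrozole then raised 4, HK2 (0.18, adjusted p = 0.0014), PFKFB3 (0.16, adjusted p = 0.00052), PFKFB4 (0.19, adjusted p = 0.00067) and ENO1 (0.12, adjusted p = 0.0010), and PDK1 was no longer called (0.10, adjusted p = 0.23), while 1.28% of all genes rose. PFKFB3 remained lower with anastrozole than with E2 (-0.31, adjusted p = 3.2e-19) and higher with the combination than with anastrozole (0.42, adjusted p = 1.1e-30), with 2.28% and 2.05% of all genes called. ALDOA (-0.088, adjusted p = 0.038) and LDHA (-0.10, adjusted p = 0.0066) were also called between anastrozole and E2. Between the combination and anastrozole PGK1 (0.11, adjusted p = 0.034) and PDK1 (0.19, adjusted p = 0.00049) were called, and ALDOA was no longer called (0.078, adjusted p = 0.22). Between the combination and E2, where calls over all genes went from 1424 to 188 (0.89%), edgeR called 0 members (2 at an unadjusted p under 0.05; DESeq2 and limma-voom were not run on GC-corrected counts), with PFKFB3 at 0.097 (adjusted p = 0.093) and LDHA at -0.050 (adjusted p = 0.53). The interaction was then called for HK2 (-0.24, adjusted p = 0.0014) and PFKFB4 (-0.21, adjusted p = 0.0069), and that of PDK1 was -0.045 (adjusted p = 0.85), with 2.78% of all genes called. The source of the GC trend was not tested.

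In vehicle, levels per kilobase of the main transcript placed 4 enzymes of the lower pathway first, with ENO1 at 1200 ± 35.3 CPM per kb (SD, n = 3), ALDOA at 1037 ± 39.0, LDHA at 934 ± 11.7 and PGK1 at 371 ± 1.51. GPI followed at 80.6 ± 0.679, PFKFB3 at 53.3 ± 1.2, PFKFB4 at 32.8 ± 0.514, SLC2A1 at 23.8 ± 0.755, HK2 at 20.8 ± 0.497 and PDK1 at 6.77 ± 0.273. Neighbours in this order lay apart by more than their SDs. With all annotated exon bases as the length, ALDOA (444 ± 16.7) came before ENO1 (410 ± 12.1), PFKFB3 (39.1) before GPI (31.1) and HK2 (19.8) before PFKFB4 (18.8) and SLC2A1 (12.2), so those neighbours have no settled order. PDK1 was lowest on both, but its lengths are close (14072 and 14845 bases), so the change of length hardly tests its place. The annotation used for counting is not known, and other lengths could move any member.

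Other genes of the pathway were taken from lists chosen by function. Over all genes tested, 12% were called in either direction with E2, 5.04% with the combination and 3.67% with anastrozole. Among the 2984 abundant genes these shares were 35.8%, 14.1% and 12.0%, though some listed genes are less abundant. A count of list genes called near these shares is not a result about that list. Of 26 further glycolysis enzymes and isoenzymes, E2 raised 4 and lowered 3, the combination raised 4 and lowered 1, and anastrozole raised 1 and lowered 1, with medians of -0.022, -0.019 and 0.017 on the log2 scale. With anastrozole, filterByExpr, DESeq2 and the exact test each called 1 of them, which was raised, and limma-voom 0. ENO2, the neuronal enolase, rose by 0.54 with E2, 0.44 with the combination and 0.31 with anastrozole (adjusted p = 3.5e-17, 3.6e-11 and 0.0019). ALDOC, a second aldolase, rose by 0.22 and 0.17 with E2 and the combination, and GAPDH, the dehydrogenase between aldolase and PGK1, by 0.11 and 0.17. PFKL, the liver-type phosphofructokinase, fell by 0.14 with E2 and by 0.16 with anastrozole (adjusted p = 0.00059 and 0.020), and neither call was made with the GC trend removed, where the other lowered calls with E2 were lost too, the E2 median was 0.017 and anastrozole raised 3. GAPDH then rose by 0.21 with E2 and both GAPDH and ALDOC passed with anastrozole (0.12 and 0.14).

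Of 12 other genes of glucose and lactate transport, anastrozole raised 1 (SLC2A10, by 0.25) and lowered 1 (SLC2A6, by 0.30), and E2 lowered SLC2A6 alone, by 0.26. The anastrozole libraries of SLC2A10 overlapped with vehicle (adjusted p = 0.047 by edgeR). With anastrozole, filterByExpr and the exact test called 1 gene of this list, with 0 raised, and DESeq2 and limma-voom called 0. With the combination the lowest adjusted p among the 12 was 0.059, for SLC2A6 at -0.20, followed by 0.086 for SLC16A3, the lactate exporter, at 0.11. In the edgeR fit with replicate letter as a block, both SLC2A6 and SLC16A3 passed with the combination (adjusted p = 0.029 and 0.020). The medians were -0.019 with anastrozole, 0.017 with E2 and 0.12 with the combination. With the GC trend removed neither SLC2A6 call was made (-0.18 and -0.12, adjusted p = 0.16 and 0.28), the E2 median was 0.11 beside 0.13 with the combination, each of the 3 treatments raised 2 of the 12 genes, and SLC16A3 was among them with E2 and the combination (0.12 with both, adjusted p = 0.013 and 0.016).

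Of 9 regulators of glucose uptake and of glycolysis genes, anastrozole raised 2 and lowered 1, E2 raised 3 and lowered 1, and the combination raised 2 and lowered 1, with medians of 0.030, 0.11 and 0.052. With anastrozole, filterByExpr, DESeq2, the exact test and limma-voom each called 1 regulator, which was raised. TXNIP, which removes glucose carriers from the surface, stood at a mean of 365.8 CPM in vehicle and rose by 0.48 with anastrozole, 0.34 with E2 and 0.26 with the combination (adjusted p = 3.0e-25, 1.2e-23 and 2.0e-11), so the means of its treated groups came in the reverse order to those of PFKFB3. By edgeR its difference between the combination and E2 was not called (-0.080, adjusted p = 0.092). With the GC trend removed it was -0.027 (adjusted p = 0.82), and that of PFKFB3 was not called either (0.097, adjusted p = 0.093). ARRDC4, a relative of TXNIP, rose by 0.31 with anastrozole and by 0.31 with E2 (adjusted p = 0.049 and 0.0058). MYC rose by 0.34 with the combination (adjusted p = 3.7e-07), and its 0.11 with E2 had an adjusted p of 0.28. MLXIP, a glucose-sensing transcription factor, fell by 0.17, 0.26 and 0.16 with anastrozole, E2 and the combination. With the GC trend removed, the anastrozole calls of MLXIP (-0.12, adjusted p = 0.15) and ARRDC4 (0.26, adjusted p = 0.11) were lost, E2 raised 2 of the 9, and the medians were 0.0090, 0.076 and 0.047.

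Around pyruvate dehydrogenase, E2 raised 4 and the combination 3 of 13 genes, with medians of 0.11 and 0.017, where 19.0% and 5.80% of the abundant genes rose. Anastrozole had 0 calls by edgeR (3 at an unadjusted p under 0.05), and also 0 by DESeq2, edgeR's exact test and limma-voom, with a median of 0.048. With the GC trend removed the same numbers rose, but E2 lowered 2, the combination 1 and anastrozole 2, and the E2 median was 0.055. PDK3, a paralog of PDK1, rose by 0.30 with E2 and by 0.14 with the combination (adjusted p = 4.1e-12 and 0.014), and PDK4 by 0.63 and 0.49 from a mean of 5.02 CPM in vehicle (adjusted p = 0.00041 and 0.020). Of 20 genes of the pentose phosphate and glycogen branches, 19 of which had counts, E2 raised 3 and lowered 4, the combination raised 3 and lowered 3, and anastrozole raised 1 and lowered 2, with medians of -0.034, 0 and -0.055. With anastrozole, filterByExpr, DESeq2 and the exact test each called 2 genes of these branches, and limma-voom 0. PYGL, the liver glycogen phosphorylase, rose by 0.40, 0.38 and 0.27 with E2, the combination and anastrozole, and GBE1, the glycogen branching enzyme, by 0.34 and 0.23 with E2 and the combination. FBP1, which runs the phosphofructokinase step backwards, fell by 0.19 with E2 and by 0.28 with the combination (adjusted p = 0.020 and 0.00031), the E2 call being lost with the GC trend removed (-0.12, adjusted p = 0.21), where E2 lowered 2 genes of this list in all and its median was 0.023.

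Among genes with a mean of at least 3 log2 CPM, the 5 whose levels relative to vehicle followed PFKFB3 most closely over the 12 libraries were CA8, MDGA1, SCNN1B, H19 and CSPG4, with root mean square differences of between 0.058 and 0.094 on the log2 scale. The nearest member was PDK1 at 0.16, then HK2 and PFKFB4 at 0.20, and the farthest was LDHA at 0.33. MDGA1, a membrane glycoprotein, was measured at a mean of 31.0 CPM in vehicle, 31.9 with anastrozole, 41.1 with E2 and 47.9 with the combination, and CA8 at 17.8, 19.97, 24.6 and 25.6 CPM. These likenesses are descriptions, and the 5 genes were chosen for them.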

How the data were processed

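RNA-seq libraries of 12 T47D samples, 3 for each of 4 treatments named in the sample labels, were analysed from 1 table of read counts per gene, which the authors deposited as whole numbers without normalization. Per the submitters' processing notes and the methods of the study, reads were aligned to hg19 with TopHat2 2.0.14 and Bowtie2 2.2.6 and counted with HTSeq; its version, strand setting and annotation are not given in the sources used here, so overlapping genes and genes with near-identical copies may be miscounted. The labels call the molecule polyA RNA and the methods total RNA.

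The 5 summary lines, which took all reads not assigned to a gene (between 32.7% and 33.5% of the reads of a library were on genes), and 4238 genes with 0 counts were left out. For each comparison a model of its 6 libraries was fitted in edgeR 4.0.16 under R 4.3.3 (TMM, robust quasi-likelihood fit, 2-sided, Benjamini-Hochberg adjustment over 21132 genes, threshold 0.05), and the interaction on all 12. Standard errors were derived from each log2 fold change and its F statistic (size over root F). CPM are TMM-normalized, and means ± SD are over 3 libraries. GC content, lengths and positions are from GENCODE 44 on GRCh37, matched to 23015 of 25370 symbols, directly or by RefSeq synonym. The GC trend was a lowess fit (span 0.5) of each library's log2 CPM, relative to the mean over libraries, on GC, subtracted as an offset.

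The 10 members and the lists of other genes were chosen with earlier results of these data known. All members are named, with up to 4 genes per list by lowest adjusted p against vehicle, and the 5 genes nearest to PFKFB3. The fits were tested on simulated data. Alternatives were other size factors, filters and tests (DESeq2 1.42.0, edgeR's exact or likelihood ratio test, limma-voom with limma 3.58.1), fits over 12 libraries at once, a block for replicate letter, GC trend removal, and leaving out each library. Intervals cover these libraries only.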

Additional observations from a re-analysis of the deposited data

Results flagged for a closer look

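The effect of anastrozole differed with and without E2, by the interaction test of edgeR over 12 libraries, for 2 of 10 members, beside 10.9% of all genes and 33.0% of the 2984 genes at least as abundant. For HK2 the log2 interaction was -0.20 (SE 0.062, adjusted p = 0.0135): anastrozole was 0.17 above vehicle without E2, and the combination was -0.038 from E2. Under the alternatives, leave-one-out fits included, it ranged from -0.24 to -0.17, and it was not called without E2 a or combination b. For PDK1 the log2 interaction was -0.19 (SE 0.064, adjusted p = 0.0363), with 0.17 without E2 and -0.017 in its presence. PDK1 has the lowest GC content of the members, and its interaction was not called in 9 of 12 fits that left out a library, with the replicate block (adjusted p = 0.052) or by DESeq2, the likelihood ratio test or limma-voom. With the GC trend removed it was -0.045 (adjusted p = 0.85), whereas that of HK2 was -0.24. Over all genes the interaction calls went from 2295 to 3202 without anastrozole c.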

How the results depend on the processing

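The counts of members called kept within 1.5 times for E2 against vehicle under every alternative run (between 6 and 9 of 10, and 6 of the 6 tested with the 7 log2 CPM filter). Against anastrozole's 2, edgeR with filterByExpr, the 7 log2 CPM filter (6 members tested), DESeq2, edgeR's exact test and limma-voom each called 0 (5, 1, 5, 4 and 6 at an unadjusted p under 0.05), GC trend removal 4, also with the replicate block, and leave-one-out fits between 0 and 3. For the combination against vehicle the 7 log2 CPM filter called 5 of 6 tested, and leave-one-out fits 8 each. For anastrozole against E2, the fit on 12 libraries called 2, GC trend removal 3, with the replicate block 2, and leave-one-out fits between 1 and 3. For the combination against E2, the exact test and the fit on 12 libraries called 1, GC trend removal 0, also with the replicate block (2 at an unadjusted p under 0.05 in both), and leave-one-out fits 1 to 2. For the combination against anastrozole, filterByExpr, the exact test and limma-voom called 1, and leave-one-out fits 1 to 4. For the interaction, the 7 log2 CPM filter, DESeq2, the likelihood ratio test, limma-voom and the replicate block called 1, and leave-one-out fits 0 to 4. The cause of these differences was not tested, beyond fewer genes or libraries where a filter or a left-out library removed them. Calls over all genes ranged from 15 (limma-voom) to 1651 (without anastrozole c) around 776 for anastrozole against vehicle, from 733 (7 log2 CPM filter) to 2808 (without vehicle b) around 2537 for E2, from 297 (7 log2 CPM filter) to 1593 (GC trend removed with replicate block) around 1065 for the combination, from 70 (limma-voom) to 482 (GC trend removed) around 280 for anastrozole against E2, from 188 (GC trend removed) to 1487 (replicate block) around 1424 for the combination against E2, from 90 (limma-voom) to 1706 (without anastrozole c) around 612 for the combination against anastrozole, and from 587 (GC trend removed) to 3202 (without anastrozole c) around 2295 for the interaction.

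The correlation of same-letter deviations was not over 0.1 for all pairs in any comparison (lowest -0.20). With 3 libraries per group this cannot show whether the replicate letters pair the libraries. For a, b and c the values were 0.14, 0.067 and 0.035 in the combination against vehicle. They were 0.14, 0.0068 and 0.048 against anastrozole, and -0.053, -0.079 and -0.059 in E2 against vehicle. In the other comparisons the signs were mixed. With the letter as a replicate block, the calls over all genes went from 776 to 823 for anastrozole, 2537 to 2207 for E2, 1065 to 1439 for the combination, 280 to 180 for anastrozole against E2 and 2295 to 2218 for the interaction. E2 then called 7 members, without GPI and ENO1 (adjusted p = 0.064 and 0.071).

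Of 1219 log2 fold changes of members under alternatives, 1069 kept direction and side of the threshold, 74 lost the call, 27 gained it and 49 changed sign, none of these past the threshold in either fit. With the GC trend removed, and with the replicate block added, the reversed values were 0.024 and 0.024 for SLC2A1 with anastrozole, -0.0092 and -0.0097 for ENO1 between anastrozole and E2, and, between the combination and E2, -0.019 and -0.020 for SLC2A1, -0.024 and -0.025 for PFKFB4, -0.014 and -0.014 for ALDOA, 0.048 and 0.047 for PGK1 and 0.059 and 0.059 for PDK1. For the interaction they were -0.044 and -0.044 for SLC2A1, -0.085 and -0.086 for GPI, -0.063 and -0.063 for PFKFB3, -0.10 and -0.10 for ALDOA, 0.023 and 0.023 for PGK1 and 0.0040 and 0.0041 for LDHA. ENO1 was also reversed between anastrozole and E2 in the fit on 12 libraries (-0.0050) and, with library size alone, in the interaction (0.0034), as was PGK1 between the combination and E2 (0.0047). In the fits that left out 1 library the changing values ranged from -0.073 to 0.028 for SLC2A1, from -0.0057 to 0.048 for ALDOA and from -0.037 to 0.031 for LDHA with anastrozole, from -0.020 to 0.010 for ENO1 between anastrozole and E2, from -0.0047 to 0.041 for SLC2A1 and from -0.021 to 0.0083 for PGK1 between the combination and E2, from -0.025 to 0.044 for LDHA between the combination and anastrozole, and, for the interaction, from -0.0044 to 0.097 for SLC2A1, from -0.0027 to 0.037 for GPI and from -0.036 to 0.016 for ENO1.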
